A study of Mus musculus with 4 samples.

Results

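The genes described here copy DNA and open the S phase of the cell cycle: 47 genes of origin licensing, the replication fork, nucleotide supply and the G1/S transition. The list names genes by their role, with earlier results of these data known, and probes were matched to it through the RefSeq entry that each probe carries. Of the 47 genes, 46 had at least 1 probe with such an entry, and all 46 were well above background in all 8 channels and were tested, among 21754 genes in all. Gins1, a subunit of the GINS complex, had no probe that could be matched and was not analysed here. The 46 genes had 57 probes, 36 genes with 1 probe, 9 with 2 and 1 with 3, and the brightest probe of each gene was tested.

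RNA of D3 cells, a mouse embryonic stem cell line, was compared on 4 arrays read in the dyes Cy3 and Cy5, each with RNA of control cells in one channel and RNA of cells given siRNA against Pnpla6 (called silenced cells here) in the other. The siRNA was carried into the cells by lipofection, after which they grew as embryoid bodies in medium lacking LIF, a cytokine that holds mouse embryonic stem cells undifferentiated. RNA was harvested at 24 h and at 96 h of differentiation, with 2 arrays per time and the dyes exchanged between them, so each of the 4 groups (control and silenced cells at each time) has 2 channels. All 4 groups share the line, the medium and the absence of LIF, and D3 is a single line. What was given to the control cells is not stated in the labels. Nor is it stated whether the 2 arrays of a time held RNA of separate cultures. P-values thus measure at most the spread among these arrays, which may be technical. For the ratios of silenced to control cells they leave part of it out, because a dye term took up the difference between the 2 arrays that both times share. The spread that remained was estimated largely from all genes together.

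Eukaryotic replication starts when the origin recognition complex, CDC6 and CDT1 load the MCM helicase onto DNA in G1. At the start of S phase CDC45 and GINS join MCM to form the active helicase, and primase, the polymerases, the sliding clamp PCNA with its loader RFC, and the single-strand binding protein RPA build the fork. Cyclin E with its kinase and the E2F transcription factors drive entry into S phase, and many genes of this machinery carry E2F sites in their promoters. Mouse embryonic stem cells are known for a short G1 and high cyclin E, and G1 lengthens as they differentiate.

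Because E2F sites link many of these genes, promoter sequences were read from RefSeq (build GRCm38.p6, 250 bases before to 50 bases after each start), which held a window for 39 of the 47 genes (44 windows). Each window was searched on both strands for TTTCCCGC, TTTGGCGC, TTTCGCGC and TTTGCCGC, the letters of common E2F sites. At least 1 of them was found in 15 of the 39 genes (38.5%) and in 34.1% of their windows, against 2.26% of all 32851 promoter windows of the same length. CCAAT, the letters bound by NF-Y, were found in 23 of the 39 genes (59.0%) and 56.8% of their windows, against 37.4% of all windows. Stretches before the start are shown for 4 genes that fell from 24 h to 96 h in both control and silenced cells (Cdc6, Mcm5, Gins3 and Rfc3) and for 2 that passed the test in neither (Orc1 and Mcm7), with the E2F letters, or their reverse complement, in capitals and each read along its gene:
Cdc6, chr11:98907987-98908046, plus strand: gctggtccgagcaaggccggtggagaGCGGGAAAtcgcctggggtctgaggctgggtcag
Mcm5, chr8:75109330-75109389, plus strand: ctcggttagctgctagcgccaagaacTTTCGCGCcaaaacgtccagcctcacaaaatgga
Gins3, chr8:95633492-95633551, plus strand: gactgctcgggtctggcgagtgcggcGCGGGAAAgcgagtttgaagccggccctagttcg
Rfc3, chr5:151651209-151651244, minus strand: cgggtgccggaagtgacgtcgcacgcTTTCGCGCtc
Orc1, chr4:108579401-108579453, plus strand: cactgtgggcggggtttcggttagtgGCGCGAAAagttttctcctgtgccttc
Mcm7, chr5:138172015-138172074, minus strand: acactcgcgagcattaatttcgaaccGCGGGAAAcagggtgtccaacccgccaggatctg
The match begins 138 bases before the start in Cdc6, 153 in Mcm5, 41 in Gins3, 10 in Rfc3, 27 in Orc1 and 165 in Mcm7. In Mcm5 a second match, GCGCCAAA, overlaps the one in capitals and begins 149 bases before the start. Rfc3 and Mcm7 each hold a further match at or after the start, which is not shown. In the other matched genes that are not shown, Mcm6 and Pola1 hold the letters before the start, and Cdt1, Mcm3, Mcm8, Pold1, Pold3, Pole2 and Lig1 after it. A match is a description of the letters, and binding was not measured.

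Before the comparisons, the arrays were checked. Pnpla6 gave log2 intensities of 10.84 and 10.83 in control cells and 10.12 and 9.83 in silenced cells at 24 h, and 10.47 in both control channels and 10.59 and 10.36 in the silenced ones at 96 h, so the 24 h groups were apart and the 96 h groups overlapped. Between 62.5% and 68.7% of the spots of a channel were well above background and none was saturated. All 12 pluripotent stem cell markers were well above background in every group. Both 24 h arrays and the first 96 h array lay on 1 slide and the second 96 h array on another. The number of arrays limits the precision throughout.

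The broadest difference among these genes lay between the times. From 24 h to 96 h, 25 of the 46 genes fell in control cells and 28 in silenced cells, and none rose in either in this fit, while Mcm8, Mcm7 or Rfc4 passed as higher in some alternatives (limma on single channels, Benjamini-Hochberg adjusted p under 0.05 over all genes tested; at an unadjusted p under 0.05, 0 were higher in control and 1 in silenced cells). Of all 21754 genes, 18.9% fell and 17.9% rose in control cells, and 19.7% fell and 18.1% rose in silenced cells. At an unadjusted limma p under 0.05, 4775 of them were higher in control cells and 4754 in silenced cells. The median log2 ratio of 96 h to 24 h over the 46 genes was −0.36 in control cells and −0.40 in silenced cells, against −0.03 over all genes tested in each. Ccne1 and Ccne2, the E cyclins, had the largest falls in both, and they alone fell by 2-fold or more in this fit. Apart from Ccne1, that depends on the settings. Across the alternatives Ccne2 ran from −1.55 to −0.89 in control cells, while Fen1 reached −1.16 there and Rfc3 −1.04 in silenced cells. In all, 14 genes fell by 1.5-fold or more in control cells and 15 in silenced cells. The share of all genes tested that fell past either of these fold limits was not computed. The control and the silenced time course are read from the same 4 arrays, with both RNAs of a time on the same spots, so they are given side by side and not as support for each other. A bulk measurement cannot tell fewer cells in S phase from less RNA per cell.

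**Figure D1:**
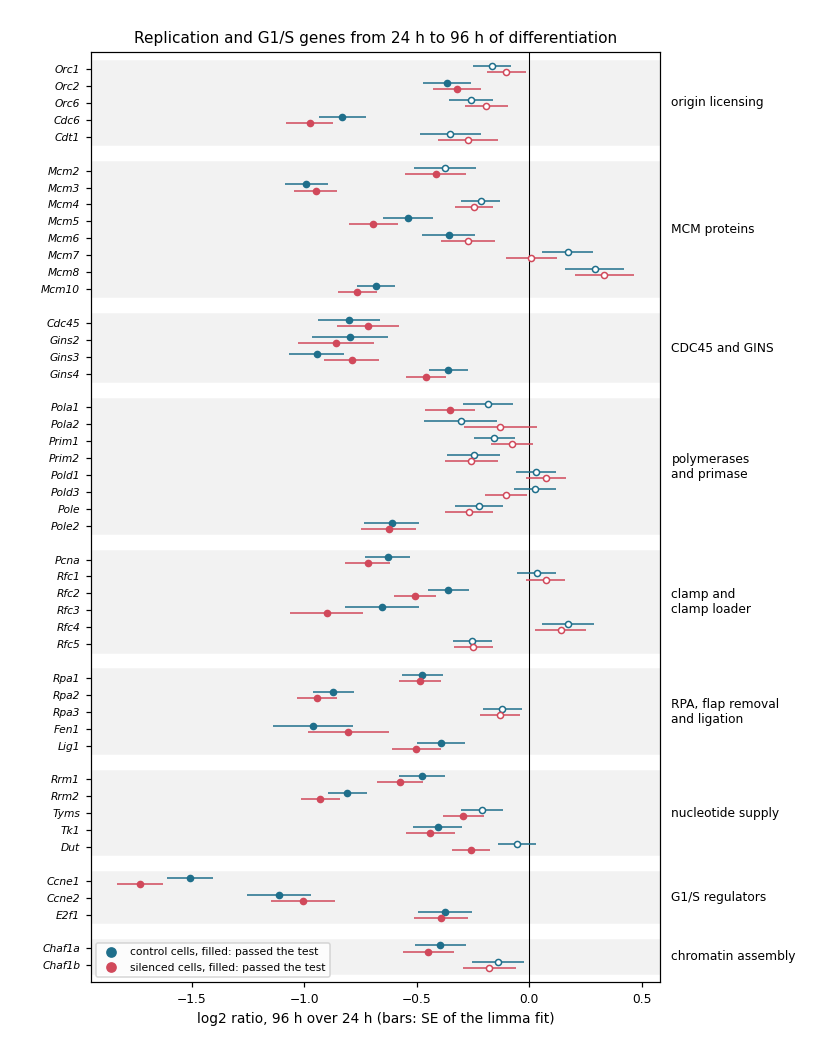
Log2 ratio of 96 h to 24 h (x axis) for each of the 46 genes, in groups by role, in control cells (blue) and silenced cells (red). Points are the fitted values with their SE (2 channels per group and time), filled where the adjusted p was under 0.05; the filled points all lie left of 0, and the E cyclins lie farthest left at −1.51 and −1.73 (Ccne1) and −1.11 and −1.01 (Ccne2).

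**Figure D2:**
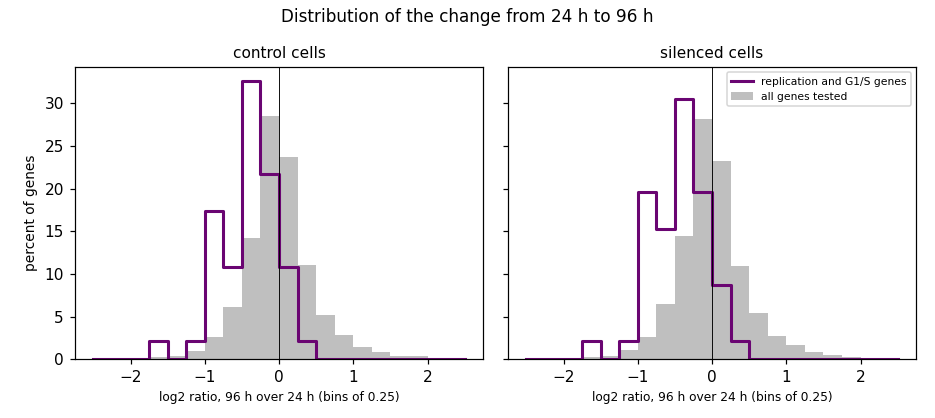
Percent of genes (y axis) per bin of 0.25 of the log2 ratio of 96 h to 24 h (x axis), for all 21754 genes tested (grey bars) and the 46 replication and G1/S genes (line), in control cells (left) and silenced cells (right). The line lies to the left of the bars in both panels, with medians of −0.36 and −0.40 against −0.03 for all genes.

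The times were also compared within each dye. Within each dye pair, 96 h minus 24 h of the same replicate number, 40 of the 46 genes were lower both times in control cells and 41 in silenced cells, where 45.3% and 45.7% of all genes tested were. The median over the 46 genes was −0.36 with both 96 h and 24 h on the first slide and −0.36 with the 96 h array on the second slide in control cells, and −0.41 and −0.41 in silenced cells.

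Among the G1/S regulators, all 3 fell. Ccne1, which activates CDK2 at the G1/S boundary, gave log2 intensities of 14.39 and 14.51 in control cells at 24 h and 12.89 and 12.99 at 96 h, and 14.40 and 14.55 in silenced cells at 24 h and 12.64 and 12.84 at 96 h. The times do not overlap in either kind of cell. The fall was 2.84-fold in control cells (log2 ratio −1.51, SE 0.10, limma adjusted p = 4.7e-05) and 3.32-fold in silenced cells (−1.73, SE 0.10, limma adjusted p = 3.2e-05). The second Ccne1 probe gave −1.81 and −1.99. Ccne2, the other E cyclin, gave 7.58 and 7.47 at 24 h and 6.39 and 6.43 at 96 h in control cells, and 7.42 and 7.63 against 6.48 and 6.55 in silenced cells. Its fall was 2.16-fold in control and 2.01-fold in silenced cells (log2 ratios −1.11 and −1.01, SE 0.14, limma adjusted p = 0.00083 and 0.0013), and its second probe gave −0.65 and −0.74. Both probes are dim (mean log2 intensities of 6.96 and 6.57), and the offset of 50 added in background correction shrinks fold changes at such levels. Over the alternatives Ccne2 ran from −1.55 to −0.89 in control cells and from −1.38 to −0.88 in silenced cells. E2f1, the first E2F activator, fell less, with log2 ratios of −0.37 and −0.39 (SE 0.12, limma adjusted p = 0.041 and 0.034). It had a dye term of 0.32, the largest of the 46 genes in size, and its silenced channels of 9.71 and 10.33 at 24 h and 9.43 and 9.83 at 96 h overlap. Its second, dimmer probe gave −0.05 and 0.02 and did not pass.

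All 4 measured genes of CDC45 and GINS, which turn loaded MCM into the active helicase, fell in both kinds of cell. Gins2, a GINS subunit, gave log2 intensities of 11.39 and 11.46 at 24 h and 10.52 and 10.73 at 96 h in control cells, and 11.46 and 11.39 against 10.71 and 10.41 in silenced cells. Its times stand apart, and the fitted log2 ratios were −0.80 and −0.86 (SE 0.17, limma adjusted p = 0.0086 and 0.0059). Gins3 gave −0.95 and −0.79 (SE 0.12), Cdc45 −0.80 and −0.72 (SE 0.14) and Gins4 −0.36 and −0.46 (SE 0.09). Of the promoter stretches above, that of Gins3 belongs to this set.

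Of the 5 origin licensing genes, Cdc6 and Orc2 fell in both kinds of cell. Cdc6, the MCM loader, gave 11.14 and 11.27 at 24 h and 10.29 and 10.46 at 96 h in control cells, and 11.25 and 11.21 against 10.33 and 10.17 in silenced cells. These channels do not overlap between times, and the log2 ratios were −0.83 and −0.98 (SE 0.10, limma adjusted p = 0.00079 and 0.00037). Orc2, an origin recognition subunit, fell by 0.37 and 0.32 on the log2 scale (SE 0.11). Orc1 and Orc6, other subunits of that complex, and Cdt1, the partner of CDC6 in loading, gave values between −0.35 and −0.10 and passed in neither, though with the replicate block Orc6 and Cdt1 were lower in both.

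The 8 MCM genes differed among themselves. Mcm3, Mcm5 and Mcm10 fell in both kinds of cell, Mcm6 in control cells and Mcm2 in silenced cells, and Mcm4, Mcm7 and Mcm8 in neither. Mcm3, a subunit of the hexamer, gave 12.34 and 12.50 at 24 h and 11.35 and 11.51 at 96 h in control cells, and 12.43 and 12.44 against 11.52 and 11.44 in silenced cells. That is a fall of 1.99-fold and 1.93-fold (log2 ratios −0.99 and −0.95, SE 0.10, limma adjusted p = 0.00023 and 0.00028). Mcm5, another subunit, fell by 0.54 and 0.69 on the log2 scale (SE 0.11), and Mcm10, which helps to start the fork, by 0.68 and 0.76 (SE 0.09). Mcm6 gave −0.36 and −0.27 (SE 0.12, limma adjusted p = 0.048 and 0.11) and Mcm2 −0.37 and −0.42 (SE 0.14, limma adjusted p = 0.067 and 0.046), so each lay on both sides of the threshold with nearly the same value. Mcm7, also of the hexamer, gave 14.81 and 14.89 at 24 h and 15.02 and 15.02 at 96 h in control cells, with log2 ratios of 0.17 and 0.01 that did not pass. The brightest probe of Mcm8, a relative that works in recombination, gave 0.29 and 0.33 (SE 0.13) without passing, while its second probe gave −0.30 and −0.37 and passed as lower in both, so the direction of Mcm8 depends on the probe.

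Of the 8 polymerase and primase genes 1 fell in control cells and 2 in silenced cells. Pole2, the second subunit of the leading-strand polymerase, gave 10.22 and 10.46 at 24 h and 9.70 and 9.76 at 96 h in control cells, and 10.18 and 10.51 against 9.61 and 9.83 in silenced cells, with log2 ratios of −0.61 and −0.63 (SE 0.12, limma adjusted p = 0.0066 and 0.0057). Pola1, the catalytic subunit of the priming polymerase, gave −0.18 and −0.35 (SE 0.11, limma adjusted p = 0.25 and 0.040). Pola2, Prim1, Prim2, Pold1, Pold3 and Pole, which encode further subunits of the 3 replicative polymerases and primase, did not pass, with values from −0.30 to 0.07. Pold3 is uncertain, because its brightest probe gave 0.03 and −0.10 while its other 2 probes gave −0.65 and −0.72, and −0.66 and −0.64, and passed as lower. Both probes of Pold1 lay near 0.

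In the clamp and its loader, Pcna, Rfc2 and Rfc3 fell in both kinds of cell, and Rfc1, Rfc4 and Rfc5 in neither. Pcna, the sliding clamp, gave 15.31 and 15.16 at 24 h and 14.70 and 14.52 at 96 h in control cells, and 15.02 and 15.30 against 14.26 and 14.62 in silenced cells. Its times stand apart in both, with log2 ratios of −0.63 and −0.72 (SE 0.10, limma adjusted p = 0.0023 and 0.0012). Rfc3, a small subunit of the loader, fell by 0.66 and 0.90 on the log2 scale (SE 0.16), and Rfc2, another small subunit, by 0.36 and 0.51 (SE 0.09). Rfc1, the large subunit, gave 12.32 and 12.48 at 24 h and 12.32 and 12.54 at 96 h in control cells, and log2 ratios of 0.03 and 0.07. Rfc4, a small subunit, gave 0.17 and 0.14, and Rfc5, the remaining small one, −0.25 and −0.25.

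Of the genes that coat single strands and finish Okazaki fragments, 4 of 5 fell in both kinds of cell. Rpa2, the middle subunit of RPA, gave 11.03 and 11.09 at 24 h and 10.14 and 10.23 at 96 h in control cells, and 11.05 and 11.14 against 10.10 and 10.20 in silenced cells, with log2 ratios of −0.87 and −0.94 (SE 0.09, limma adjusted p = 0.00031 and 0.00022). Rpa1, the large subunit, fell by 0.48 and 0.49 on the log2 scale (SE 0.09). Rpa3, the small subunit, gave −0.12 and −0.13 (SE 0.09) and did not pass. Fen1, the flap nuclease, gave 10.98 and 11.51 at 24 h and 10.19 and 10.38 at 96 h in control cells, and 10.80 and 11.32 against 10.26 and 10.25 in silenced cells. Its 24 h channels lie far apart but above those of 96 h, with log2 ratios of −0.96 and −0.80 (SE 0.18, limma adjusted p = 0.0047 and 0.010). Lig1, the ligase of lagging strands, fell by 0.39 and 0.50 (SE 0.11).

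All 5 nucleotide supply genes fell in silenced cells and 3 of them, Rrm1, Rrm2 and Tk1, in control cells. Rrm2, the S-phase subunit of ribonucleotide reductase, gave 12.06 and 12.11 at 24 h and 11.20 and 11.35 at 96 h in control cells, and 12.19 and 12.12 against 11.21 and 11.24 in silenced cells, with log2 ratios of −0.81 and −0.93 (SE 0.09, limma adjusted p = 0.00038 and 0.00020). Rrm1, its partner subunit, fell by 0.48 and 0.58 (SE 0.10), and Tk1, which salvages thymidine, by 0.41 and 0.44 (SE 0.11). Tyms, which makes thymidylate, gave −0.21 and −0.29 (SE 0.09, limma adjusted p = 0.12 and 0.040), and its second probe −0.34 and −0.45 and passed in both. Dut, which breaks down dUTP, gave −0.06 and −0.26 (SE 0.08, limma adjusted p = 0.65 and 0.045), and its second probe −0.02 and −0.29 and passed in neither. Of the histone chaperone CAF-1, Chaf1a, its large subunit, fell by 0.40 and 0.45 (SE 0.11), while Chaf1b, the middle subunit, gave −0.14 and −0.18 and did not pass.

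**Figure D3:**
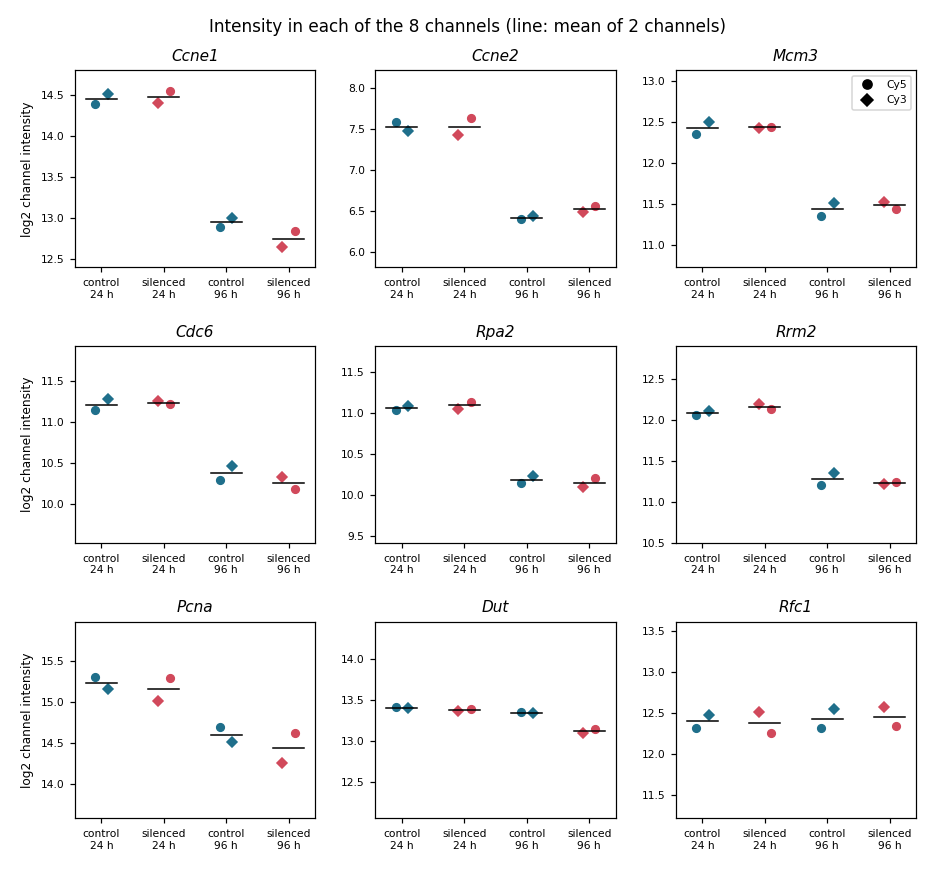
Log2 intensity (y axis, each panel spanning the same range) in each of the 8 channels for 9 genes, control cells in blue and silenced cells in red, Cy5 as circles and Cy3 as diamonds, with a line at the mean of the 2 channels. The 96 h channels lie below the 24 h channels in Ccne1, Ccne2, Mcm3, Cdc6, Rpa2, Rrm2 and Pcna, while Rfc1 stays level and Dut is lower only in the silenced channels at 96 h, 13.10 and 13.14 against 13.36 and 13.34 in control cells.

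In total 24 genes fell in both kinds of cell, 1 (Mcm6) passed in control cells alone and 4 (Mcm2, Pola1, Tyms and Dut) in silenced cells alone, and 17 in neither. These counts rest on the spread in a fit without the replicate number: with it as a block, 34 passed in both, 1 in control cells alone, 2 in silenced cells alone and 9 in neither (Orc1, Mcm7, Prim1, Pold1, Pold3, Rfc1, Rfc4, Rpa3 and Chaf1b). Mcm8 was then higher in both, and Orc6, Cdt1, Mcm2, Mcm4, Mcm6, Prim2, Pole and Rfc5 were lower in both. With that block 30.4% of all genes tested were lower in control cells and 31.4% in silenced cells, against 18.9% and 19.7% without it. The share of all genes that passed in both kinds of cell was not computed. With a background offset of 16, Orc2, Mcm6, E2f1 and Chaf1a no longer passed in control cells, nor Orc2, Mcm2, Pola1, Tyms, Dut and E2f1 in silenced cells, with the same signs. The difference between the 2 time courses equals the difference between the times in the silencing effect, and no gene passed for it (limma on ratios, 0 of 46, with 3 at an unadjusted p under 0.05: Rfc3 at −0.25, Ccne1 at −0.23 and Dut at −0.20), where 6.92% of all genes tested passed. Before adjustment, 4013 of all 21754 genes were under 0.05 in that fit. The E2F letters were found on both sides of the test: in control cells 8 of the 21 genes with a window that fell held them (38.1%) and 7 of the 18 that did not pass (38.9%), and in silenced cells 8 of 24 (33.3%) and 7 of 15 (46.7%).

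The other comparison asked what siRNA against Pnpla6 did to these genes at each time. At 24 h, when Pnpla6 was low, none of the 46 passed the test (limma on log2 ratios of silenced to control cells, with 1 gene at an unadjusted p under 0.05), where 0.372% of all genes tested did. Before adjustment, 1669 of all 21754 genes were under 0.05. The log2 ratios ran from −0.19 (Fen1) to 0.11 (E2f1) with a median of −0.0040, and 41 of 46 lay within 0.1 of 0. Fen1, the gene under 0.05 before adjustment, gave −0.18 and −0.19 on the 2 arrays (fit −0.19, SE 0.06, limma adjusted p = 0.28). Over all 46 genes the 95% intervals of the ratio lay between −0.32 and 0.23, and their median width to either side was 0.13. These intervals leave out the difference between the 2 arrays that both times share, and their width comes largely from all genes together. They therefore do not show the spread between arrays of a single gene. At 24 h the interval of E2f1 ran from −0.021 to 0.23. E2f1 gave −0.23 and 0.44 on the 2 arrays at 24 h and −0.21 and 0.39 at 96 h, in opposite directions at both times, and in these ratios dye and replicate cannot be told apart.

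At 96 h, 2 of the 46 genes were lower in silenced cells and none was higher, where 6.80% of all genes tested were lower and 6.61% higher. The share of lower genes here, 4.35%, is near that of all genes. The 2 genes were Dut and Ccne1. Dut gave −0.25 and −0.19 on the 2 arrays (fit −0.22, SE 0.06, limma adjusted p = 0.011), from log2 intensities of 13.36 and 13.34 in control cells and 13.10 and 13.14 in silenced cells, which do not overlap. Its second probe gave −0.28 (limma adjusted p = 0.0011). Ccne1 gave −0.25 and −0.15 (fit −0.20, SE 0.06, limma adjusted p = 0.026), from 12.89 and 12.99 in control and 12.64 and 12.84 in silenced cells, which do not overlap either, and its second probe gave −0.18 (limma adjusted p = 0.044). Both differences are small, a 1.17-fold and a 1.15-fold lower level. Both calls were lost when the dye term, in effect a block on the replicate number, was left out (limma adjusted p = 0.36 and 0.44 at the same ratios), with a smaller background offset (0.11 and 0.15), with median centring (0.15 and 0.26), with the authors' own ratios (0.23 and 0.28), with the slide as a block in place of the dye term (0.73 for each) and when any 1 of the 4 arrays was left out, a fit that has no dye term either (0.53 to 0.90). The sign stayed negative in each.

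Pcna and Tyms came next at 96 h, with −0.16 (SE 0.06, limma adjusted p = 0.078) and −0.17 (SE 0.06, limma adjusted p = 0.077). Pcna gave −0.44 on one array and 0.11 on the other, and Tyms −0.19 and −0.14. The second Tyms probe gave −0.18 and passed (limma adjusted p = 0.048). The 46 log2 ratios ran from −0.22 to 0.10 with a median of −0.043, and 34 lay within 0.1 of 0. That median was −0.077 without 96 h replicate 1, 0.015 without 96 h replicate 2 and −0.0015 with median centring, so its sign is not settled. Their 95% intervals lay between −0.35 (Dut) and 0.24 (Ccne2), and those of the difference between the times between −0.43 (Rfc3) and 0.36 (Pola2). The limit given for the intervals at 24 h holds here too. At 96 h the interval of Pcna ran from −0.29 to −0.038, with both of its array values outside it. The 2 arrays gave the same sign for 10 of 46 genes at 24 h and 15 of 46 at 96 h, where 37.9% and 51.3% of all genes tested did, so for most of the 46 genes the 2 arrays, which carry the dyes in opposite order, gave opposite signs.

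**Figure D4:**
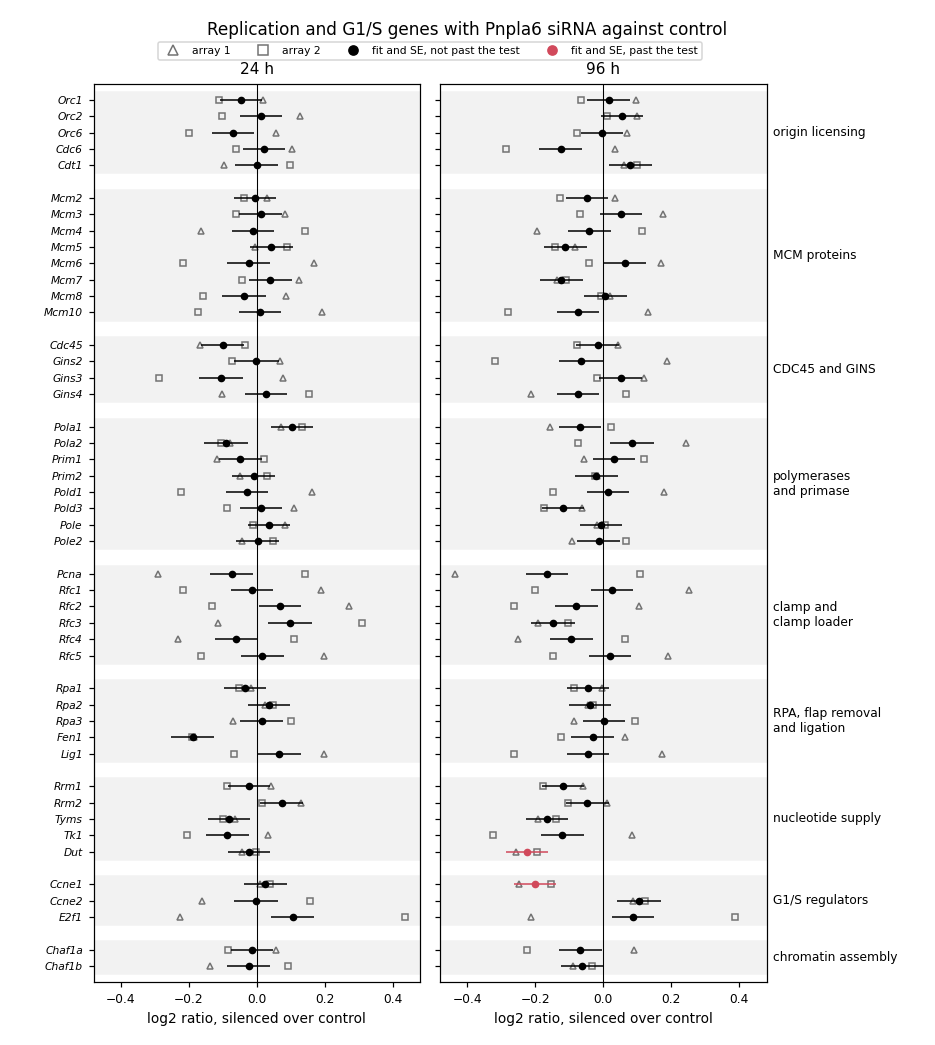
Log2 ratio of silenced to control cells (x axis) at 24 h (left) and 96 h (right) for the 46 genes, with each array as an open symbol and the fit with its SE as a filled point, red where the adjusted p was under 0.05. Fitted values lie within 0.25 of 0 at both times, and only Dut (−0.22) and Ccne1 (−0.20) at 96 h are red.

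Other genes of the same pathways, from lists that hold none of the 47, were set beside them. Of the silencing calls given for these lists, none passed with the authors' ratios, and no difference between the times passed there, without the dye term, with the slide as a block or with any array left out. Of all genes tested, 18.9% fell and 17.9% rose in control cells, and 19.7% fell and 18.1% rose in silenced cells. With silencing at 96 h 6.80% were lower and 6.61% higher, and 6.92% passed for the difference between the times. With silencing at 24 h 0.372% passed, and 1669 of the 21754 had an unadjusted limma p under 0.05. Of 38 other replication factors, 17 fell and 3 rose in control cells and 15 fell and 4 rose in silenced cells from 24 h to 96 h, with medians of −0.16 and −0.19. The largest falls were those of Pole4, a small polymerase subunit (−0.97 in control, −0.88 in silenced cells), Uhrf1, which guides maintenance of DNA methylation (−0.86 and −0.82), and the helicase gene Recql4 (−0.78 and −0.81). The largest rises were those of Orc4 (0.58 and 0.61) and Orc3 (0.51 and 0.51), 2 subunits of the origin recognition complex, with Cdc7, the kinase that fires origins, next in control cells (0.41) and Dna2, a nuclease of flaps, among the top 3 in silenced cells (0.53). Orc4 and Orc3 thus rose while Orc2 fell. At 24 h no gene of the 38 passed with silencing (4 at an unadjusted p under 0.05). At 96 h 3 were lower (7.89%, near the share of all genes): Timeless, which holds the fork together (−0.40, SE 0.06, limma adjusted p = 1.2e-05), Wdhd1, which ties polymerase to helicase (−0.23), and Slbp, which binds histone mRNA (−0.19). Timeless gave −0.12 and −0.68 on the 2 arrays at 96 h and 0.52 and −0.01 at 24 h, and its silencing effect differed between the times by −0.66 (SE 0.09, limma adjusted p = 2e-06). The effect on Dna2 differed by 0.35 (SE 0.09, limma adjusted p = 0.0095).

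Of 19 other nucleotide supply genes tested, 8 fell in control and 10 in silenced cells and none rose, with medians of −0.28 and −0.29. The largest falls were those of Umps, of pyrimidine synthesis (−0.81 in each), Atic, of purine synthesis (−0.71 and −1.05), and Shmt1, of folate metabolism (−0.67 and −0.75). With silencing, none passed at 24 h (0 at an unadjusted p under 0.05), and at 96 h Atic (−0.32), Gart, also of purine synthesis (−0.20), and Samhd1, which breaks down dNTPs (−0.18), were lower (15.8% of the 19) and the uracil glycosylase Ung was higher (0.19; 5.26%). The effect on Atic differed between the times by −0.34 (SE 0.09, limma adjusted p = 0.012).

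Of 31 other G1/S regulators tested, 11 fell and 4 rose in control cells and 12 fell and 8 rose in silenced cells, with medians of −0.18 and −0.11. Myc, which drives growth and G1 progression, gave 10.78 and 10.99 at 24 h and 8.86 and 9.01 at 96 h in control cells, and its log2 ratios were −1.95 and −2.21 (SE 0.09). Cdkn1c, an inhibitor of cyclin-dependent kinases, fell by 1.60 and 1.97 on the log2 scale and E2f8, a repressor of the E2F family, by 1.45 and 1.51. Cdkn1a, which encodes the inhibitor p21, rose by 1.41 and 1.61, Rb1, which holds E2F in check, by 1.19 and 1.28, and Cdkn2b, an inhibitor of CDK4 and CDK6, by 0.87 and 0.88. With silencing, 6 were lower at 96 h (19.4%) and 5 higher (16.1%), and none passed at 24 h (4 at an unadjusted p under 0.05). Lower at 96 h were Cdk6, a G1 kinase (−0.39), Myc (−0.34) and Cdkn1c (−0.25) among the largest, and higher were Cdkn2c (0.27), Mycn (0.27) and Rbl2 (0.24), which encode an inhibitor of CDK4 and CDK6, a relative of Myc and a relative of RB1. The effect differed between the times for 6 genes, Cdkn1c (−0.37), Cdk6 (−0.35) and Cdkn1b (−0.33) downward and Cdkn2c (0.35), Cdkn2a (0.29) and Rbl2 (0.29) upward.

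Of 30 mitosis genes, which act later in the cycle, 11 fell and 1 rose in control cells and 12 fell and 1 rose in silenced cells, with medians of −0.25 and −0.24. Plk1, a mitotic kinase, fell by 0.76 and 0.86 on the log2 scale, and the separase gene Espl1 by 0.74 and 0.54, while Pttg1, which encodes securin, rose by 0.91 and 1.18. Ube2c, of the anaphase-promoting pathway, fell by 0.67 in control cells, and Ccnb1, the mitotic cyclin, by 0.64 in silenced cells. With silencing, none passed at 24 h (0 at an unadjusted p under 0.05), and at 96 h Cdc20 was lower (−0.20) and Pttg1 higher (0.26), 3.33% of the list each way.

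Markers of other cell types were summed over the same groups. Each sum holds the offset of 50 that the background correction added to every probe. The sums are therefore not proportional to the signal above background, and changes between them are smaller in proportion than changes in that signal. Each measured marker is in the sum of every group, including groups where it was not well above background. The summed intensity of 7 measured feeder fibroblast markers was 1796 to 1906 in control cells at 24 h and 2901 to 3184 at 96 h, and 1810 to 1871 and 2692 to 2722 in silenced cells. Col3a1, Lum and Postn, 3 of the 10 listed, were not well above background in any group. For 8 measured endoderm markers of 10 the sum was 740 to 763 at 24 h and 975 to 980 at 96 h in control cells and 741 to 749 and 1188 to 1205 in silenced cells, with Ttr and Apoa1 not well above background in any group, Afp in neither 24 h group and Sox7 not in silenced cells at 24 h. For 9 measured mesoderm and heart markers of 10 the sum was 1749 to 1814 and 1490 to 1592 in control cells and 1783 to 1785 and 1689 to 1740 in silenced cells, with Mixl1 not well above background in any group, Tbx5 and Tnnt2 in neither 24 h group, and Tbx5 and Kdr not in control cells at 96 h. For 9 measured neural markers of 10 the sum was 4483 to 4563 and 3160 to 3247 in control cells and 4866 to 4946 and 2924 to 2929 in silenced cells, with Neurog2 not well above background in any group and Zic1 not in silenced cells at 24 h. Of the 12 pluripotent stem cell markers 2 fell and none rose in control cells, and 3 fell and 1 rose in silenced cells. With silencing at 96 h, where Dut and Ccne1 passed, 6 pluripotent stem cell markers were higher and 1 lower, 1 feeder fibroblast marker was higher and 4 lower, 2 endoderm markers were higher, 1 mesoderm and heart marker was higher and 1 lower, and 1 neural marker was higher and 2 lower. Of all genes tested 6.61% were higher and 6.80% lower there, and none of these calls passed with the authors' ratios. The part of a changing mix of cells in these differences of the replication and G1/S genes was not tested.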

How the data were processed

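RNA of control and silenced D3 cells was measured at 24 h and 96 h on 4 two-colour arrays, 200 ng of RNA labelled per the labels. Per the file headers, the authors read the scans with version 10.7.1.1 of Agilent Feature Extraction. The deposited files hold spot signals as intensity, log10 ratios of Cy5 to Cy3, and a p-value per spot, which the authors' error model gave for a single array and which was not used in a test. The series table that the authors deposited gives the same log10 ratios, turned to silenced over control, within 4.97e-06. Gene names come from each probe's RefSeq entry; the files and the RefSeq table refer to different builds, so no probe positions are given.

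Median signals and backgrounds were read with limma 3.58.1 in R 4.3.3. Background was corrected by normexp with an offset of 50, and ratios were normalized by loess in each array. Control spots (1639 of 45018) and 1 non-uniform spot were left out. A probe was kept if 1 of the 4 RNA groups or more had it well above background on each of its arrays (28082 of 41174 probes), and the brightest probe per gene was tested, in 21754 genes. Silencing effects came from a limma fit of log2 ratios with a mean per time and a dye term (1 residual degree of freedom, 33.2 prior ones). Time courses came from single channels after Aquantile normalization (lmscFit with a dye term, intraspot correlation 0.896, 3 residual degrees of freedom). Values of second probes come from the same fits over all probes. P-values are two-sided and adjusted by Benjamini-Hochberg over all genes, at 0.05, in 5 comparisons. The fits were also run on simulated data, with noise independent between arrays apart from a dye bias and with silencing effects of 1.5-fold or more. Changes between the times were simulated at 2-fold or more and only in genes of middle intensity, while most falls given here are smaller than 2-fold. That run does not check smaller effects or a spread between cultures. Figures were drawn with matplotlib.

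Replicate numbers are in the labels and coincide with the dye orientation, so in the ratio fit the dye term is also the replicate block, while the single-channel fit has no such block. The differences between replicates 1 and 2 in the log2 ratio of silenced to control cells correlated at 0.70 over genes between the 2 times, a value that also holds the dye effect. Per-channel values are given for genes past the test; related lists are represented by up to 3 rises and 3 falls per comparison. The genes and lists were chosen with earlier results of these data known. Alternatives were the offset, centring, the authors' ratios, no filter, the mean over probes, the block, the slide and leaving out each array.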

Additional observations from a re-analysis of the deposited data

How the results depend on the processing

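Among the 46 genes, the counts that passed at 24 h and for the difference between the times were 0 under every alternative run on all 4 arrays (limma, at most 1 at 24 h and 3 for the difference at an unadjusted p under 0.05). In several of these runs none of all genes tested passed, so the 0 was fixed there and is no check. At 24 h those runs were the offset of 16, the authors' log ratios, no replicate block and the slide as a block. For the difference they were the same runs without the offset of 16. At 96 h Dut and Ccne1 were also called without the filter on dim probes and with the mean over probes. The count was 0 with an offset of 16, with median centring, with the authors' log ratios, with no replicate block and with the slide as a block, and 0 to 0 when 1 array was left out. The last 2 kinds of ratio fit also lack the dye term, since no residual degrees of freedom would remain, so they change 2 choices at once; without either 24 h array the ratios at 96 h were those of the fit with no replicate block, and the slide fit gives the values found without 96 h replicate 2. The cause of the other losses was not tested. The log2 ratio stayed between −0.26 and −0.19 for Dut and between −0.25 and −0.15 for Ccne1.

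In the time courses 21 to 35 genes passed in control cells and 22 to 36 in silenced cells, lowest with an offset of 16 and highest with the replicate block (35 and 36), and every gene called in the text kept its direction. Of all genes tested, 34.4% and 35.7% passed with that offset, and 57.3% and 58.3% with the block. Mcm8 passed as higher in both kinds of cell with the block, with no dye term and without 24 h replicate 1, in control cells also without 24 h replicate 2 or 96 h replicate 2, and in silenced cells with the slide as a block or without 96 h replicate 1. Without 24 h replicate 2, Rfc4 passed as higher in both and Mcm7 in control cells. The median of the 46 log2 ratios was −0.38 in control cells with quantile normalization over the 8 channels, −0.41 in silenced cells with an offset of 16 and −0.41 with the mean over probes. With the slide as a block it was −0.39 in control cells, −0.44 in silenced cells and 0.023 for the difference between the times, which was 0.0055 with median centring. With 1 array left out it ran from −0.41 to −0.33, from −0.44 to −0.31 and from −0.074 to 0.023. No scaling moved the median of all genes tested by 0.1. Each scaling brings the arrays or channels to a common distribution, so that median could hardly move and is no check of the scaling. With 3 arrays the intraspot correlation could not be estimated, and that of all 4 was used.

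Over all 21754 genes the counts also depend on the settings. At 24 h 81 passed, but 42 with median centring, 9 with the mean over probes and 0 with an offset of 16, the authors' ratios, no block, the slide as a block or any array left out. At 96 h 2918 passed, but 1798 with median centring, 1017 with an offset of 16, 106 with no block, 36 with the slide as a block and 0 with the authors' ratios (3846 at an unadjusted p under 0.05), and 29 to 114 with 1 array left out. For the difference 1506 passed, but 957 with the mean over probes, 737 with median centring, 271 with an offset of 16 and 0 with the authors' ratios, no block, the slide or any array left out. In the time courses 7995 and 8220 passed, and 12468 and 12676 with the replicate block.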
